A study of Mus musculus with 2 samples.

Results

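The tripartite motif (TRIM) genes other than the Trim24 branch were followed in murine macrophages upon stimulation with interleukin-4 (IL-4). Members were taken by symbol, as every gene that was listed in 1 or both expression tables under a name that starts with Trim and a number. Trim24 and its relatives Trim28, Trim33 and Trim66 were left out. This gave 49 genes of the 15623 listed in all. Thioglycolate (4%) was injected into the peritoneal cavity of wild-type C57BL/6 mice, and cells were washed out 4 to 5 days later. The cells that adhered within 4 h were starved in medium with 0.5% serum and were then left nontreated (NT) or were stimulated with mouse IL-4 for 6 h. Each group held 1 library, so no difference below could be set against a spread between animals. The number of mice behind each library was not given in the sources used here.

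TRIM proteins are built on a RING finger, B-box zinc fingers and a coiled coil, followed by a carboxy-terminal domain that differs between branches of the family. The RING finger lets most of them act as E3 ubiquitin ligases, which choose the proteins that receive ubiquitin from an E2 enzyme. In macrophages the family is best known for control of antiviral sensing and NF-kB signalling, and many members are themselves induced by interferon. IL-4, in contrast, signals through Stat6 and drives alternative (M2) polarization.

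The TRIM family as a whole was close to level between the libraries. No member was called higher upon IL-4 stimulation, and 4 were called lower, namely Trim16, Trim56, Trim59 and Trim29. Calls needed a log2 ratio (IL-4 over NT) of 0.75 or more in size, together with an exact binomial p-value no higher than 0.05 and no more than 0.5 after Benjamini-Hochberg (BH) adjustment. At these thresholds, which follow the study, 4.07% of the 15593 genes tested were called higher and 6.28% were called lower. All 49 members were tested, and the 4 lower ones were 8.16% of them, a share near that of all genes. The test sets 1 library against the other and says nothing of how conditions differ across animals. As a median, the log2 ratio was -0.08 over the 49 members and -0.03 over all genes tested. With members absent from 1 library set at 3 counts there, the smallest number taken as measurable, the median was -0.07. In these bulk samples, fewer cells of a type and less RNA per cell cannot be told apart.

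The libraries held 11035641 (NT) and 11250099 (IL-4) expected counts, which are estimates of the reads from each gene. At these depths 3 counts equal 0.272 and 0.267 CPM, which are counts scaled to a common library total. Intervals below are exact 95% Clopper-Pearson intervals that hold counting error alone, as if each read were a separate molecule. The labels give peritoneal macrophages as the cells but bone marrow as the tissue. All 8 macrophage markers were listed, with Lyz2 at 11289 FPKM in NT and 10811 FPKM in IL-4, but they did not move together. Csf1r was called higher (6236 and 11896 counts, log2 ratio 0.90), Cd14 was called lower (1219 and 591 counts, log2 ratio -1.07), and the other 6 were not called. Among all genes tested, 4.07% were called higher and 6.28% lower. FPKM is the level scaled to transcript length and to library size, so it can be compared between genes. Markers of T cells, B cells, mast cells, eosinophils and neutrophils were at or under 8.76 FPKM, and those of mesothelial cells and fibroblasts reached 14.4 FPKM.

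Promoter sequences were examined first, since interferon and Stat6 both act through short DNA motifs. RefSeq promoters (GRCm38.p6) were matched for 38 of the 49 members, with 51 start sites between them, and the 250 bases before each start were searched. An interferon response motif (GAAA and GAAA with any 2 bases between, sought on both strands) was present in 5 of the 38 members (13.2%). Among 12171 tested genes with a promoter it was present in 3.34%. The 5 members were Trim5, Trim12c, Trim30a, Trim30d and Trim26, of which the first 4 lie in 1 gene cluster and have related sequences, so they are not independent. A motif of the kind bound by Stat6 (TTC and GAA with any 4 bases between, the same on both strands) was present in 5 of 38 members (Trim39, Trim46, Trim68, Trim69 and Trim75) and in 5.64% of tested genes. Of these 5, Trim39 and Trim68 had at least 50 counts, at log2 ratios of -0.40 and 0.11. The 170 bases before the start are printed for the members with the interferon motif, and for Trim56 and Trim25, the innate sensing ligases with the lowest ratios, in whose 250 bases neither motif was found. Sequences run from 5′ to 3′ along the gene, and capitals mark the interferon motif as read on the strand shown.
Trim5 promoter, chr7:104288107-104288276, minus strand: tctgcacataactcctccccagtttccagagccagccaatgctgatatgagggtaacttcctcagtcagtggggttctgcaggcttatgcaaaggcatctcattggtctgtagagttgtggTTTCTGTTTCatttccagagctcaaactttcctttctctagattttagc
Trim12c promoter, chr7:104353350-104353519, minus strand: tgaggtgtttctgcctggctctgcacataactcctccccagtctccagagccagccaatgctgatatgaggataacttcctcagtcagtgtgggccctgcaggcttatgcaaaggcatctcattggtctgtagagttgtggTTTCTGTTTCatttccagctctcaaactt
Trim30a promoter, chr7:104465194-104465363, minus strand: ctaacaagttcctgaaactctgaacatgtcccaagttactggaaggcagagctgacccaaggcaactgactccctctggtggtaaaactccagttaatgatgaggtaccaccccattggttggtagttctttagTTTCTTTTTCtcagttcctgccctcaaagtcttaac
Trim30d promoter, chr7:104507850-104508019, minus strand: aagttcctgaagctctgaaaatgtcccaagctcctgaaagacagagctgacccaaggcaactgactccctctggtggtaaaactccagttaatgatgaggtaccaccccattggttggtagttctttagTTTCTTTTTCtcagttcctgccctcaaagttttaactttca
Trim26 promoter, chr17:36836976-36837145, plus strand: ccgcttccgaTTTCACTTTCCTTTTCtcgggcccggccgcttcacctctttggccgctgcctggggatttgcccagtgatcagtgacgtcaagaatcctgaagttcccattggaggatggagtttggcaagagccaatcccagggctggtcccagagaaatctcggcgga
Trim56 promoter, chr5:137116208-137116377, minus strand: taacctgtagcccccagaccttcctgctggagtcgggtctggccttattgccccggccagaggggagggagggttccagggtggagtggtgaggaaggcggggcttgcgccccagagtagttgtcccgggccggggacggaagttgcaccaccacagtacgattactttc
Trim25 promoter, chr11:88999233-88999402, plus strand: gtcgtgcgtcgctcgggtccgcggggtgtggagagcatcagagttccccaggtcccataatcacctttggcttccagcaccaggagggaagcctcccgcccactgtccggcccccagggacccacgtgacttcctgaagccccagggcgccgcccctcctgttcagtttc

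The motif started 49 bases before the start site in Trim5, 29 bases in Trim12c, 36 bases in Trim30a and 41 bases in Trim30d. The same 10 letters, TTTCTGTTTC, were present in Trim5 and Trim12c, and TTTCTTTTTC was present in Trim30a and Trim30d. Trim26 held TTTCACTTTC and TTTCCTTTTC, which overlap. All 5 genes had at least 50 counts, and their log2 ratios ran from -0.07 to 0.18, with a median of 0.00. A match describes the letters in this window and is not a mapped binding site.

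The most abundant members were Trim8, Trim25, Trim35, Trim26, Trim41, Trim30a, Trim3 and Trim12a, by mean FPKM. These 8 genes made up 53.3% of the summed FPKM of the family in NT and 52.3% in IL-4. Levels above 10 FPKM in both libraries were seen for 11 members, and levels above 1 FPKM in both for 29. The median member stood at 2.81 FPKM in NT and 2.58 FPKM in IL-4, against 4.36 and 4.02 FPKM for all genes. Trim8 led the family in NT and Trim35 in IL-4.

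**Figure D1:**
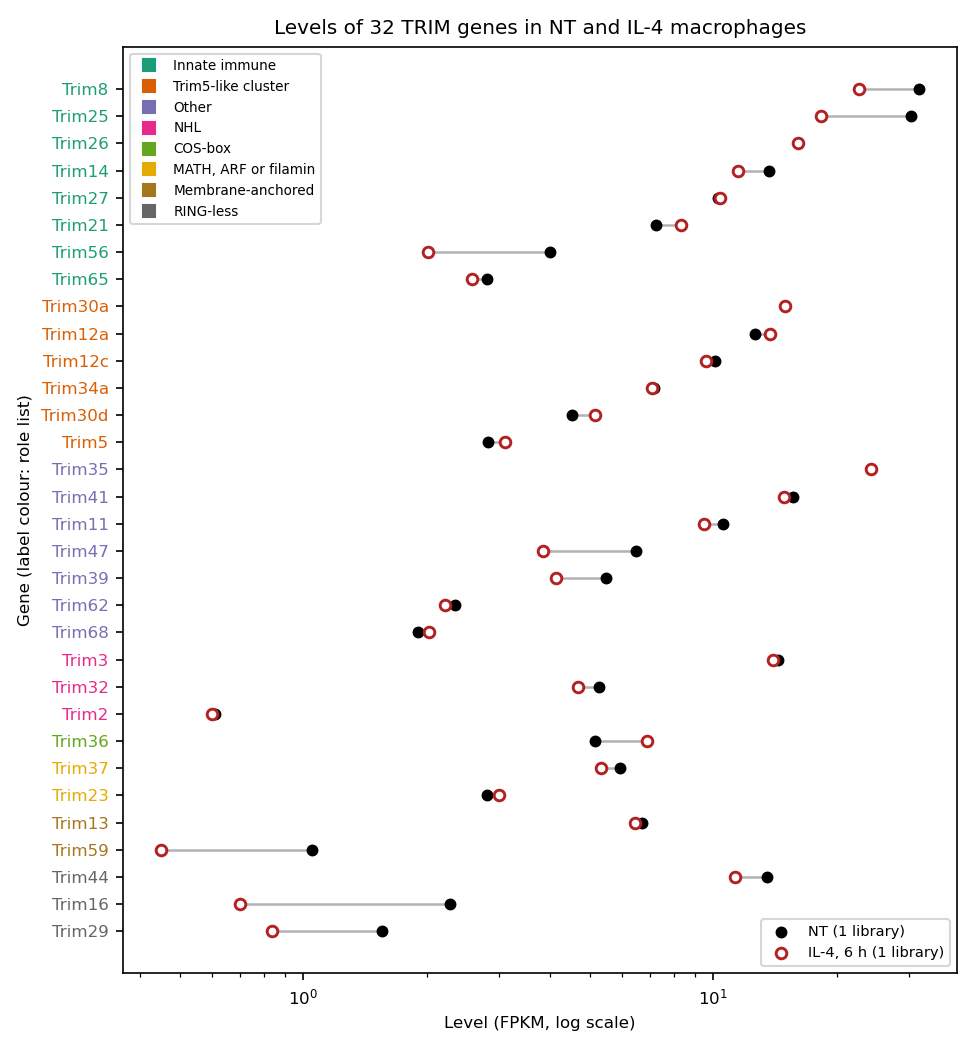
Level of the 32 TRIM genes described singly (FPKM, log scale) in the NT library (filled black points) and the IL-4 library (open red points), with label colours for the role lists and the 17 members of under 50 counts with no call left out. The 4 genes called lower are Trim16 (2.28 to 0.70 FPKM), Trim59 (1.05 to 0.45 FPKM), Trim56 (4.00 to 2.01 FPKM) and Trim29 (1.56 to 0.84 FPKM), which have the 4 widest gaps of the genes plotted.

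Among TRIM genes known for innate immune signalling, 8 of 10 genes on the list are analysed here, of which 1 was called lower, 0 were called higher and 7 were not called. For all genes tested, 6.28% were called lower and 4.07% higher. The median log2 ratio of these 8 genes was -0.19, and their summed level was 459 CPM in NT and 350 CPM in IL-4. Most of that difference lay in Trim25 (-68.0 CPM) and Trim8 (-30.0 CPM). Members such as Trim30a, Trim62 and Trim29, which also have roles in innate signalling, were placed on other lists. The median and sum given above hold for this list alone. Trim56, which promotes signalling through the DNA sensor adaptor STING, had 161.87 expected counts in NT and 82.91 in IL-4. Its level went from 4.00 to 2.01 FPKM, and its log2 ratio was -0.99 (95% interval -1.39 to -0.60). The level was 1.98-fold lower in IL-4, and the interval included the threshold of 0.75.

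Trim25, the ligase that activates the RNA sensor RIG-I, was the member with the most reads. It had 1893.60 counts in NT and 1165.47 in IL-4, or 30.3 and 18.3 FPKM. Its log2 ratio of -0.73 fell just short of the threshold, although the interval from -0.84 to -0.62 was among the narrowest in the family and lay far from 0. Trim8, which binds SOCS1 and promotes NF-kB signalling, had 1151 counts in NT and 836 in IL-4 (31.8 and 22.6 FPKM), and its log2 ratio was -0.49 (95% interval -0.62 to -0.36). Trim14, an adaptor at the mitochondrial antiviral protein MAVS, had 487.59 counts in NT and 415.99 in IL-4 (13.7 and 11.5 FPKM), and its log2 ratio was -0.26 (95% interval -0.45 to -0.07). Neither Trim8 nor Trim14 was called.

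The other innate members had intervals that included 0. Trim26, which acts on the transcription factor IRF3, had 573 and 584 counts (16.1 FPKM in each library), and its log2 ratio was 0.00 (95% interval -0.17 to 0.17). Trim27, first known as the ret finger protein, had 480.99 and 496.35 counts (10.3 and 10.4 FPKM), and its ratio was 0.02 (95% interval -0.17 to 0.20). Trim21, a cytosolic antibody receptor, had 220 and 263 counts (7.24 and 8.33 FPKM), and its ratio was 0.23 (95% interval -0.03 to 0.49). Trim65, a ligase of the RNA sensor MDA5, had 95 and 89 counts (2.81 and 2.58 FPKM), and its ratio was -0.12 (95% interval -0.56 to 0.31). No difference was detected for these 4 genes. By counting error alone, the intervals of Trim26 and Trim27 were narrow and lay around 0. Those of Trim21 and Trim65 were wider, and depth limits what can be seen for them.

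The Trim5-like cluster on chromosome 7 (104218795 to 104507853, GRCm38) held 9 members and no call. Its primate counterpart is known for blocking retroviral capsids, and Trim30a is known to restrain NF-kB through loss of TAB proteins. The cluster summed to 1744.06 counts in NT and 1814.89 in IL-4, and its log2 ratio was 0.03 (95% interval -0.07 to 0.13). Trim30a had 626.52 and 639.03 counts (14.9 FPKM in each library), and its ratio was 0.00 (95% interval -0.16 to 0.16). Trim30d had 183.48 and 211.97 counts (4.53 and 5.14 FPKM), a ratio of 0.18. Trim12a had 215.10 and 239.35 counts (12.6 and 13.8 FPKM), a ratio of 0.13, and Trim12c had 417.97 and 406.04 counts (10.1 and 9.58 FPKM), a ratio of -0.07. Trim34a had 206 and 208.18 counts (7.15 and 7.08 FPKM), a ratio of -0.01, and Trim5 had 77.99 and 87.50 counts (2.82 and 3.10 FPKM), a ratio of 0.14. The intervals of these 6 genes all included 0.

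These neighbours share sequence, so their separate values are uncertain. Of the 31-base words in the Trim5 transcript, 54.7% were also found in transcripts of other genes, and the share was 47.7% for Trim12c, 40.9% for Trim12a, 50.1% for Trim34a and 71.0% for Trim34b. It was 11.8% for Trim30a and 12.0% for Trim30d. Summed pairs do not depend on how reads were divided within the pair, but they still depend on reads shared with genes outside it, such as those Trim12a and Trim12c share with Trim5 (29.0% and 38.7% of their words). Trim30a with Trim30d had 810 and 851 counts, and the log2 ratio was 0.04 (95% interval -0.10 to 0.18). Trim34a with Trim34b had 206 and 212 counts, a ratio of 0.01. Trim12a with Trim12c had 633.07 and 645.39 counts, with an interval from -0.16 to 0.16.

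Trim16, Trim29 and Trim44, which were listed together as lacking a RING finger, were all below 0 in log2 ratio, and 2 of these 3 were called lower. Trim14, described above with the innate genes and not called, also lacks a RING finger, which makes 2 of these 4 members. Over all genes tested, 6.28% were called lower. Mefv, a TRIM protein outside the symbol rule that is described below, is not in this tally and was called higher. Trim16, which is recruited by galectins to damaged lysosomes and helps their removal by autophagy, was the furthest from level among the called members. It had 99 counts in NT and 31 in IL-4, or 2.28 and 0.70 FPKM. Its log2 ratio was -1.69 with an interval from -2.33 to -1.11, a level 3.22-fold lower in IL-4, and the whole interval lay past the threshold. The exact binomial test gave Trim16 a BH-adjusted value of 8.48e-09. No 31-base word of its transcript was found in another gene.

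Trim29, known in epithelia and as a brake on antiviral signalling in alveolar macrophages, had 49 counts in NT and 27 in IL-4, or 1.56 and 0.84 FPKM. Its log2 ratio was -0.88, with a wide interval from -1.62 to -0.18 and a BH-adjusted value of 0.0395 by the exact binomial test. Trim44, which carries a ubiquitin-binding zinc finger, had 848.92 counts in NT and 720.33 in IL-4 (13.6 and 11.3 FPKM). Its ratio of -0.26, with an interval from -0.41 to -0.12, was not called. Markers of mesothelial cells and fibroblasts, cells that line the same cavity, were read beside these genes. All 6 on that list had a ratio below 0, their sum was 156 CPM in NT and 134 CPM in IL-4, and 1 (Msln, 12 and 2 counts) was called lower. The intervals of Upk3b, Wt1, Col1a2 and Dcn included 0. Once the median of genes of like length was subtracted, Col1a2 alone was above 0 (0.12), and Col1a1 stood at -0.06. Over all 15593 genes tested, 8523 had a ratio below 0, and 6.28% were called lower. The sum of the eosinophil markers was 4.80 CPM in NT and 2.49 CPM in IL-4, with 2 of 5 listed, Siglecf (53 and 27 counts) called lower, and Prg2 at 0 counts in NT and 1 in IL-4. Neutrophil markers (2 of 5 listed) summed to 3.26 and 1.87 CPM, with S100a8 at 35 and 21 counts, and T cell markers (4 of 5 listed) to 2.15 and 1.17 CPM. Mast cell markers (4 of 5 listed) summed to 5.35 and 4.18 CPM and B cell markers (5 of 5 listed) to 9.61 and 8.62 CPM, and no gene of these 4 lists was called. The part of such cells in the fall of Trim16 and Trim29 was not tested.

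Both members anchored in the membrane of the endoplasmic reticulum were measured. Trim59 had 34 counts in NT and 15 in IL-4 (1.05 and 0.45 FPKM), and its log2 ratio was -1.18 (95% interval -2.19 to -0.29), and it was called lower. Of its 31-base words, 12.6% were found in other genes, mostly in Gm15381. Trim13, which takes part in the degradation of proteins from the endoplasmic reticulum, had 116 and 114 counts (6.70 and 6.45 FPKM), and its ratio was -0.05 (95% interval -0.44 to 0.33). For Trim13, 28.7% of the 31-base words were also found in Gm9359. The 2 members with that anchor had intervals that overlapped, and a difference between them was not tested.

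**Figure D2:**
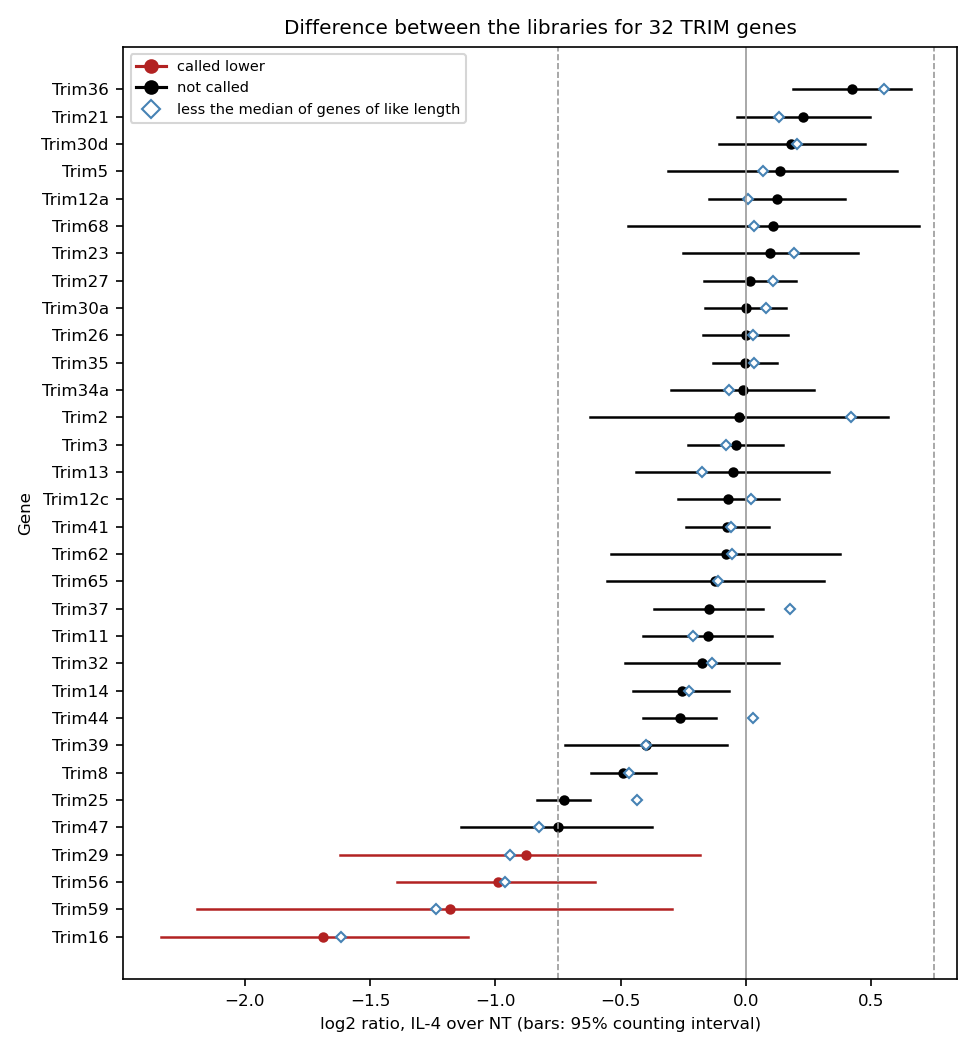
IL-4 over NT as a log2 ratio for the same 32 TRIM genes, with bars for the 95% counting interval and open diamonds for the ratio less the median of genes of like length. The 4 genes in red (Trim16, Trim59, Trim56 and Trim29) were called lower, and Trim36 at 0.42 is the only gene plotted whose interval lies wholly above 0.

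None of the 4 members with NHL repeats was called. Trim3, a ligase best known in neurons, had 460 and 456 counts (14.3 and 14.0 FPKM), and its log2 ratio was -0.04 (95% interval -0.23 to 0.15). Trim32, whose loss causes a muscular dystrophy, had 187 and 169 counts (5.27 and 4.67 FPKM), a ratio of -0.17, and Trim2, a ligase of neurofilament protein, had 50.03 and 50.01 counts (0.61 and 0.60 FPKM), a ratio of -0.03. The intervals of Trim3, Trim32 and Trim2 included 0, and Trim71 had 1 count in NT.

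Trim36, a microtubule-binding member with a COS box, had the highest ratio of the 30 members with at least 50 counts. It had 261.18 counts in NT and 357.03 in IL-4 (5.14 and 6.89 FPKM), and its log2 ratio was 0.42 (95% interval 0.19 to 0.66). The whole interval lay below the threshold of 0.75, and Trim36 was not called. The COS-box members analysed besides Trim36 were Trim9, Trim46 and Trim63, each with at most 9 counts in either library. Of the members with a MATH, ARF or filamin domain, Trim37, a peroxisome and centrosome ligase, had 372 and 342 counts (5.91 and 5.33 FPKM) and a ratio of -0.15. Trim23, which ends in an ARF GTPase domain, had 133 and 145 counts (2.80 and 3.0 FPKM) and a ratio of 0.10. The intervals of Trim37 and Trim23 included 0.

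The remaining list held 16 members, most of them with a PRY-SPRY domain, and none was called. Trim35, a ligase first found in blood cell precursors, had 995 and 1011 counts (24.3 and 24.2 FPKM), and its log2 ratio was 0.00 (95% interval -0.13 to 0.12). Trim41, a ligase of protein kinase C, had 609 and 590 counts (15.7 and 14.9 FPKM), a ratio of -0.07, and Trim11 had 266 and 244 counts (10.6 and 9.49 FPKM), a ratio of -0.15. Trim47 had 157 and 95 counts (6.48 and 3.84 FPKM), and its ratio of -0.75 fell just short of the threshold before rounding, with an interval from -1.14 to -0.38. Its neighbour Trim65, which shares 6.53% of its 31-base words with Trim47, had an interval that included 0, as given above.

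Trim39, which stabilises the apoptosis regulator MOAP-1, had 186.37 and 144.02 counts (5.47 and 4.14 FPKM), and its log2 ratio was -0.40 (95% interval -0.72 to -0.08). Trim62, a ligase of the adaptor CARD9, had 84 and 81 counts (2.35 and 2.22 FPKM), a ratio of -0.08. Trim68 had 50 and 55 counts (1.90 and 2.03 FPKM), a ratio of 0.11. The intervals of Trim62, Trim68, Trim41 and Trim11 included 0, and that of Trim39 did not.

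Another 17 members had under 50 counts in both libraries and no call. Of these, Trim7 had 37 and 38 counts, Trim45 had 44 and 30 counts, and Trim6 had 14 and 18 counts. The other 14 (Trim9, Trim30b, Trim43b, Trim46, Trim52, Trim63 and the 8 named next) had under 10 counts in both and summed to 27.17 counts in NT and 26.44 in IL-4. Trim15, Trim43a, Trim71 and Trim72 were listed in NT alone, and Trim17, Trim34b, Trim69 and Trim75 in IL-4 alone. None of these 8 exceeded 3.82 counts, so their listing in a single table rests on a few reads.

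**Figure D3:**
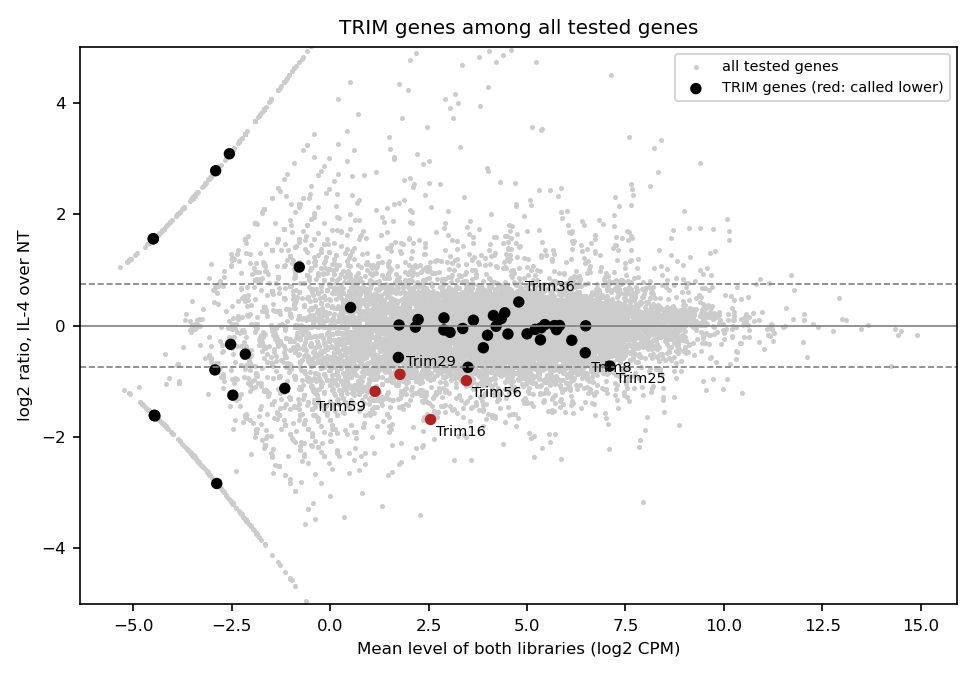
Mean level of both libraries (log2 CPM) against log2 ratio (IL-4 over NT), for all tested genes (grey) and the 49 TRIM genes (black, or red where called lower), with dashed lines at the threshold of 0.75 and the vertical axis ended at 5 in size. Most well-measured TRIM genes lie within 0.25 of 0, and the uncalled members of at least 50 counts below that band are Trim25, Trim47, Trim8, Trim39, Trim44 and Trim14.

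Counting error alone was used for a second description. The interval lay wholly below 0 for 10 members (Trim8, Trim14, Trim16, Trim25, Trim29, Trim39, Trim44, Trim47, Trim56 and Trim59) and wholly above 0 for 1 (Trim36). Among all genes tested, 20.4% had an interval below 0 and 17.9% had an interval above 0. The 10 lower members of 49 were again near the background, but the 1 higher member was a share well under it. That shortage of higher members was not tested. Of the 30 members with at least 50 counts in 1 library, 21 had a log2 ratio within 0.25 of 0. The share was 49.98% among the 9925 genes of that depth. At a second rule, which asks for a change past 1.5-fold and a BH-adjusted result no higher than 0.05, 6 members were lower and 0 were higher. Trim25 and Trim47 joined the 4 above. That rule called 7.74% of all genes lower and 4.84% higher.

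The summed level of the family was 1076 CPM in NT and 932 CPM in IL-4, a difference of -13.4%, and most of it lay in a pair of innate genes. Trim25 accounted for -68.0 CPM, or 47.3% of the net difference, and Trim8 for -30.0 CPM, or 20.9%. Without Trim25 and Trim8, the sum was 799.7 CPM in NT and 754 CPM in IL-4. The 4 called genes were far less abundant, with 14.7 CPM for Trim56 and 8.97 CPM for Trim16 in NT. On the other side, Trim36 was 8.07 CPM and Trim21 3.44 CPM higher in IL-4, neither being called. A sum in CPM gives more weight to long transcripts. In summed FPKM the family had 300 in NT and 265 in IL-4, a difference of -11.6%. The summed FPKM of all genes was 491835 in NT and 506880 in IL-4, so FPKM sums had no common total. The differences in CPM and in FPKM therefore cannot be compared directly.

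**Figure D4:**
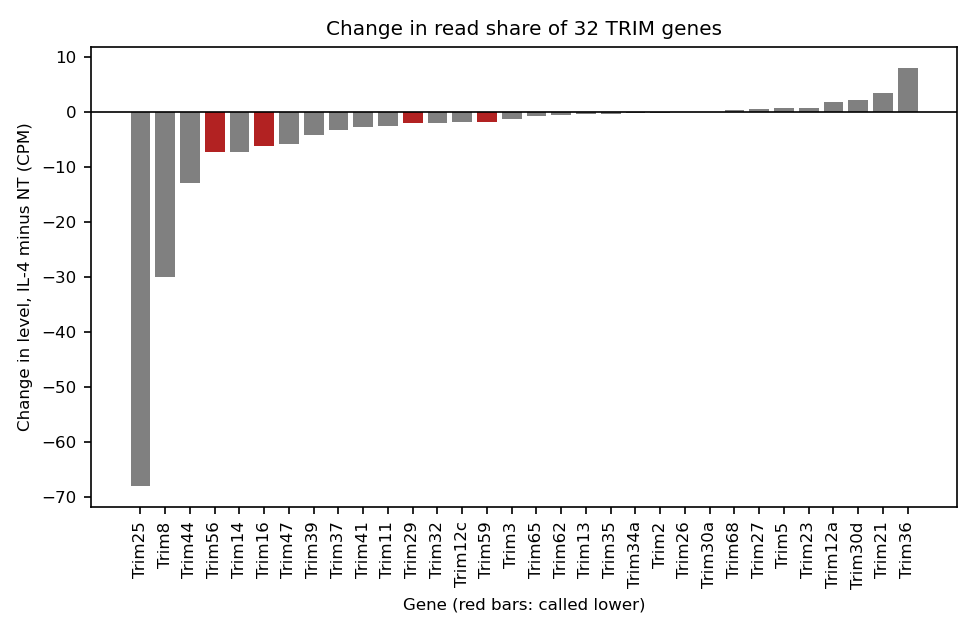
Change in level (IL-4 minus NT, CPM) of the same 32 TRIM genes, in order, with red bars for the genes called lower. Trim25 at -68.0 CPM and Trim8 at -30.0 CPM take up most of the net difference, and Trim36 at 8.07 CPM is the tallest bar above 0.

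Transcript length moved with the ratio in these libraries and was set beside each member. Over the 8461 genes that reached 200 reads across both libraries, the Spearman correlation of length with log2 ratio was -0.45, as a description over genes that share 2 libraries. Over the 30 members with at least 50 counts it was -0.09. Trim25, at 5596 bases, had a log2 ratio of -0.44 (interval -0.54 to -0.33) once the median of the 200 genes nearest in length was subtracted. Trim44, at 5612 bases, had 0.03 (-0.12 to 0.17). Trim8, at 3262 bases, kept a ratio of -0.47. The 4 called genes were 2830 to 3896 bases long, and their adjusted ratios were -1.62 for Trim16, -1.24 for Trim59, -0.96 for Trim56 and -0.94 for Trim29. Trim47, at about 2193 bases, had an adjusted ratio of -0.83. The adjusted interval lay below 0 for 9 members, without Trim44, and above 0 for Trim36 alone, at 0.55. The part of length in these ratios was not tested further.

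**Figure D5:**
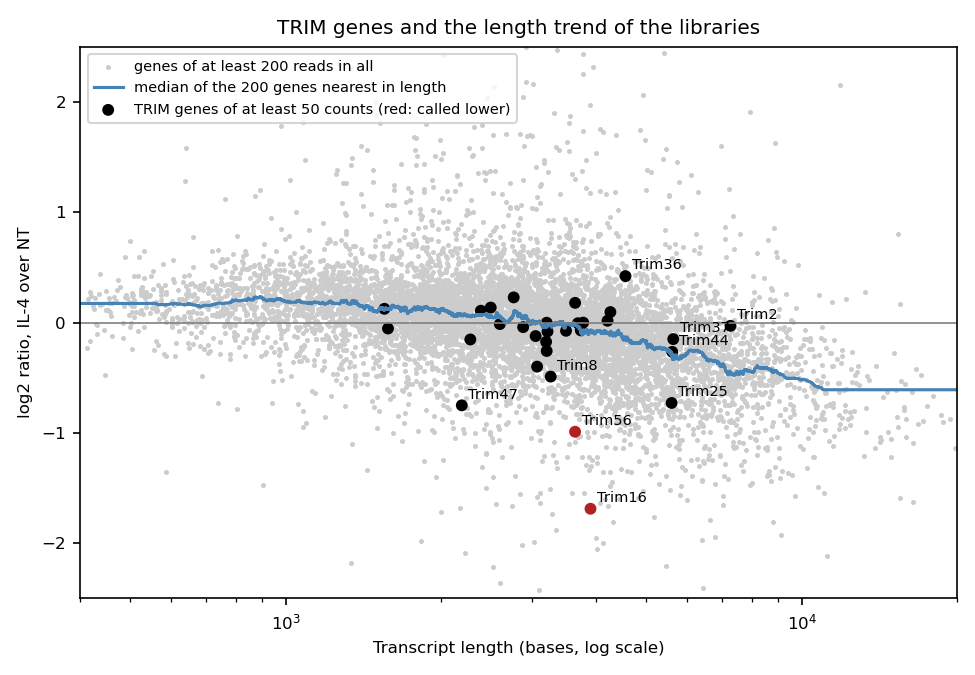
Transcript length (bases, log scale) against log2 ratio (IL-4 over NT), for genes of at least 200 reads (grey), the median of the 200 genes nearest in length (blue line) and TRIM genes of at least 50 counts (black, or red where called lower). Trim44 lies on the line, Trim25 lies 0.44 below it, and Trim16 and Trim56 lie far below it.

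The length in the tables is weighted over the transcripts of a gene, so a change in it marks a change in the estimated mix of isoforms. It moved by over 1% in 2 members. For Trim21 it was 2741 bases in NT and 2790 in IL-4, and for Trim45 it was 3499 and 3709 bases, the latter from 44 and 30 counts only. All other members listed in both libraries stayed within 1%.

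Related genes outside the symbol rule were read in the same way. Of 4 TRIM proteins that carry other symbols, 1 was called higher and 3 were not called. The share called higher among all genes tested was 4.07%. Mefv, which encodes the inflammasome sensor pyrin, had 28 counts in NT and 61 in IL-4, and its log2 ratio was 1.08 (95% interval 0.43 to 1.80). Mid1, a microtubule-bound ligase, had 218.73 and 335.13 counts, and its ratio was 0.59 (95% interval 0.34 to 0.84). Pml, the organiser of nuclear bodies, had 550 and 438 counts, a ratio of -0.36, and Mid2 had 5 and 3 counts.

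Over all 15593 genes tested, 7070 had a ratio above 0, the median was -0.03, and 6.28% were called lower. Of 10 E2 enzymes that can serve TRIM ligases, none was called, and 8 had a ratio above 0, with a median of 0.21. Of 12 sensors and adaptors that TRIM proteins act on, 10 were listed, of which 1 was called lower and 9 were not called, with a median of -0.17. The called gene was Traf3, with 443 and 256 counts and a ratio of -0.82, or -0.38 once length was taken into account. Ddx58, which encodes RIG-I, the target of Trim25, had 334.76 and 341.32 counts and a ratio of 0.00. Of 12 interferon-stimulated genes, 1 was called lower (Mx1, 17.10 and 6.25 counts), 11 were not called, and the median was -0.17. Their summed level was 277 CPM in NT and 288 CPM in IL-4.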

How the data were processed

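RNA from wild-type thioglycolate-elicited peritoneal macrophages was sequenced in 2 samples, 1 NT and 1 stimulated with IL-4, and groups were taken from the sample descriptions. Per the labels, the authors used the GRCm38/mm10 build, Bowtie for mapping and RSEM for quantification (versions not given in the sources used here). The deposited tables hold expected counts, which are not scaled for depth and need not be whole, FPKM values, and a transcript length in bases. The lowest FPKM listed was 0.01, and a gene absent from a table was set to 0. Gene numbers were matched to symbols through RefSeq GRCm38.p6 (15587 of 15623).

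Ratios were computed from counts scaled to the library totals with 0.5 count added. Counts were rounded for an exact two-sided conditional binomial test (smaller tail doubled) with BH adjustment over all 15593 genes with a read. The procedure was tested on simulated data that held counting error alone, with changes placed only in genes above 50 counts. Those data do not cover variation between animals or calls at lower counts. Values were given for every called member, the 8 most abundant by FPKM, those with at least 50 counts in 1 library and the most abundant of each role list. Sequence sharing was the share of 31-base words in the transcripts listed for a member (GENCODE sequences) that were found in any transcript of another gene. Alternatives were other scalings, FPKM, thresholds and filters, subtraction of a length trend, and edgeR's exact test at assumed levels of biological variation. Python 3.11.15, scipy 1.17.1, pandas 2.3.3, R 4.3.3, edgeR 4.0.16 and DESeq2 1.42.0 were used. The members, gene lists and alternatives were chosen with earlier results of these data known.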

Additional observations from a re-analysis of the deposited data

How the results depend on the processing

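No paired analysis was possible because NT and IL-4 were measured in 1 library each, and no replicate could be left out. At the main thresholds 4 members were lower and 0 were higher. The number of lower members was 1 with FPKM and 1 added, which shrinks low values, and 2 where a log2 ratio of 1 and a BH-adjusted result no higher than 0.05 were required. With the edgeR exact test it was 4 at an assumed biological coefficient of variation of 0.1, 1 (Trim16) at 0.2 and 0 at 0.4, so the calls depend on the assumed variation, which these data cannot give. In the other settings it ran from 3 (whole counts alone, which drops Trim56) to 6 (fold over 1.5). No member was called higher in any setting. Trim47 was called lower with the 100 most abundant genes left out of the totals, with the length trend subtracted and at a fold over 1.5, and Trim25 in the last alone. The median log2 ratio ran from -0.14 with copies that share sequence summed to -0.04 with TMM scaling. Over the named members, 418 comparisons stayed on the same side of the threshold, 12 lost a call and 4 gained a call. Settings that changed only the filter, thresholds or test kept the main log2 ratios. Members near 0 could therefore gain no call in those settings. No called member changed sign, and changes of sign in uncalled members were not counted. With the length trend subtracted, for example, Trim37 went from -0.15 to 0.18 and Trim44 from -0.26 to 0.03. Summing copies and a two-sided test by likelihood (4 lower in each) were added after seeing the data. Over all genes tested, 635 were higher and 979 lower at the main thresholds, against 391 and 399 with FPKM and 1 added, 408 and 476 at the stricter thresholds, 390 and 423 at a variation of 0.2, 65 and 8 at 0.4, and 481 and 644 with whole counts alone. Depth limits Trim29 and Trim59, with at most 49 counts in a library.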
